A study of Homo sapiens with 6 samples.

Results

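HYPK, its chromosome 15 neighbour SERF2 and 7 subunits of the N-terminal acetyltransferases were followed through an in vitro cleavage of human myeloma RNA by IRE1. The 9 genes are HYPK, NAA10, NAA15, NAA16, NAA50, NAA20, NAA25, NAA30 and SERF2, out of 57905 gene identifiers counted, and all 9 were among the 14398 genes that passed the filter on low counts. HYPK was chosen by its measured change in gene counts, which was among the highest after IRE1. SERF2 was taken because it shares exons with HYPK, and the acetyltransferase genes because of their function. HYPK's own change is therefore described and not tested.

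Total RNA came from NCI-H929 (H929), an established multiple myeloma cell line, so it represents 1 line of malignant plasma cells. The treated reactions held 5 μg of RNA and 2 μg of the recombinant cytoplasmic part (residues 467 to 977) of human ERN1/IRE1a, and the controls lacked the enzyme. All were kept at 37 °C for 1 h and then heated to 95 °C for 5 min. There were 3 control and 3 IRE1-treated libraries, all made from poly(A)-selected RNA with a stranded kit. Because purified RNA was cut in a tube, no cell was exposed to the enzyme. For the level of a gene in this bulk RNA, few cells with a transcript and few copies per cell cannot be told apart. The labels do not say whether the 6 reactions used RNA of separate cultures, so the p-values measure only the spread between these samples.

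Most human proteins receive an acetyl group on their N-terminus while they are still being made at the ribosome. NatA joins the catalytic subunit NAA10 to the ribosome anchor NAA15 or its paralog NAA16, and NAA50 is a further acetyltransferase that rides on it. HYPK is a small protein that binds NatA and holds back its activity. NatB consists of the catalytic NAA20 and the auxiliary NAA25, and NatC of the catalytic NAA30 with NAA35 and NAA38. SERF2 encodes a small protein known to modify amyloid formation, and has no established part in N-terminal acetylation. IRE1 is the endoplasmic reticulum stress sensor whose RNase splices XBP1 mRNA and cuts other mRNAs, typically at a CUGCAG sequence held in a hairpin loop. In poly(A)-selected RNA a cut separates the upstream part of a transcript from its poly(A) tail.

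The canonical transcripts of the 9 genes held 14 CUGCAG sites. Those in SERF2 and NAA25 and some of those in NAA15 are shown as examples. The sites of NAA30, NAA50 and NAA16 are not printed. The sequences were read from GENCODE transcripts on GRCh37, 5′ to 3′, with CUGCAG in capitals and 12 bases on either side.

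SERF2 site 1: uuugcccugaguCUGCAGcgggucccuuuu
NAA15 site 1: guuuggaagaugCUGCAGauguuuauagag
NAA15 site 2: gucucuuuaauaCUGCAGugugugaaagua
NAA25 site 1: gaugacaacucaCUGCAGgcacugacuauc
NAA25 site 2: aaguacauuauuCUGCAGaaaaagcuguga
NAA25 site 3: gacaucagagcuCUGCAGcaacauuugugu

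The SERF2 site is at chr15:44086099-44086104 on the plus strand, in the 3′ UTR within exon 3 of 3, and did not fall in a predicted loop. A site was counted as in a loop where the G at position 3 of CUGCAG was left single-stranded at the tip of a hairpin, with a tip of 5 to 11 bases and a stem starting with 3 or more pairs, when 15 bases were folded on either side. NAA15 held 4 sites on the plus strand of chromosome 4. Its site 1 is in the coding part of exon 7 and site 2 spans the junction of exons 17 and 18, and of the 4 only site 2 met this rule. Its loop has 6 bases and holds 5 bases of the motif, UGCAG, while the leading C is paired. All 3 sites of NAA25, on the minus strand of chromosome 12, are in coding sequence, in exons 3, 10 and 12, and none lay in a loop.

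The other members held few sites. NAA50 had 2, NAA30 had 2 and NAA16 had 1, while the canonical transcripts of NAA10 and NAA20 had no CUGCAG. Altogether 2 of the 14 sites were in a predicted loop by this rule. Among 12182 tested protein-coding genes, 85.3% held at least 1 CUGCAG and 15.4% of 40046 sites lay in such a loop, so 7 of 9 members with a site is near the background. The density was 0.367 sites per kilobase in the members and 0.806 in all these transcripts. A match is a description of the letters and not evidence of cleavage at that place.

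The libraries held 19615715 to 25678499 counts on genes. BLOC1S1, a known IRE1 substrate and the check that the enzyme acted, went from 612 ± 33.9 normalized counts (SD, n = 3) in controls to 239 ± 33.0 in IRE1-treated samples, a log2 fold change of −1.37. Normalized counts here are counts corrected for library size and TMM factor and brought to the average library. They are relative measures. A gene said to rise or be higher did so relative to the other genes of its library, and not in number of molecules. The TMM factors were 0.947, 0.980 and 0.996 for treated replicates 1, 2 and 3 against 1.02 to 1.03 for controls, and IRE1-treated replicate 1 differed most from the controls in its gene counts. All 8 plasma cell markers were detected, with sums of 235845 to 240934 in controls and 236190 to 252882 in treated samples. T cell markers summed to 899 to 940 in controls and 947 to 1178 in treated samples, almost wholly from CD3E, while CD3D had 0 to 1 counts per library. B cell, myeloid and erythroid marker sums stayed at or below 54.0. The part of these markers in the members' values was not tested.

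HYPK counts lay above every control in all 3 treated libraries, but by very different amounts. HYPK (ENSG00000242028, plus strand, chr15:44088340-44096625) had 181, 192 and 187 normalized counts in the controls and 456, 279 and 250.1 in the treated libraries. IRE1-treated replicate 1 stood apart from the other treated libraries, and the groups did not overlap. The mean went from 186 ± 5.50 to 329 ± 111, which is 176% of control. The fitted log2 fold change was 0.81 (standard error, SE, of 0.170). This SE takes no account of HYPK having been chosen by this value. Against the control mean the treated libraries lay at log2 ratios of 1.29, 0.58 and 0.42. Without IRE1-treated replicate 1 the log2 fold change was 0.51.

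HYPK ranked 66 of 14398 tested genes by log2 fold change, and 5 of the 10293 that averaged 100 normalized counts or more. Among other genes of that abundance called higher, with groups that did not overlap, HMGN5 lay next above HYPK at 0.89. RPL26 lay next below at 0.59. These values chose HYPK and stand as a description.

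**Figure D1:**
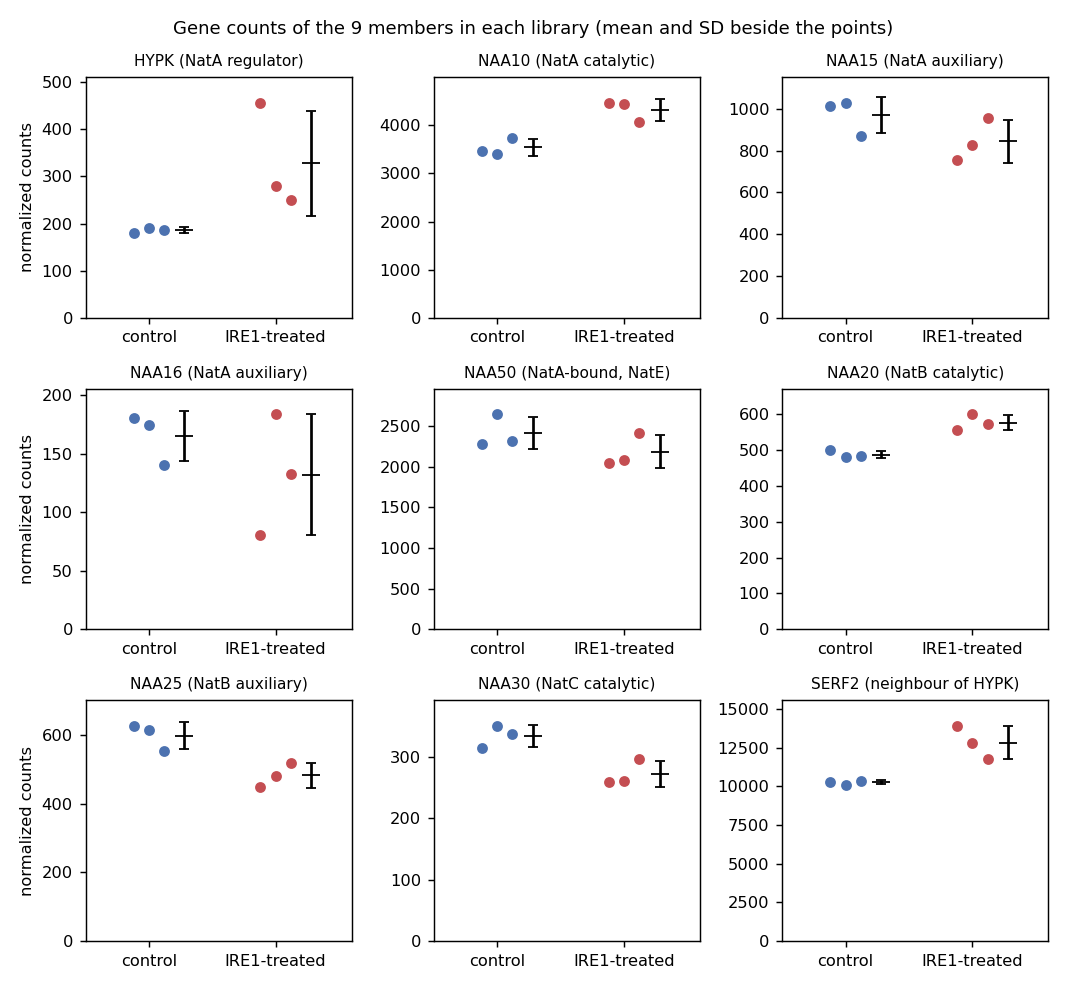
Normalized counts (y axis, from 0) of the 9 genes in each of the 3 control (blue) and 3 IRE1-treated (red) libraries, with the mean and SD in black beside the points. HYPK spans 250.1 to 456 after IRE1 against 181 to 192 in controls, and NAA15, NAA16 and NAA50 overlap between the groups.

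What a HYPK count can hold is limited by the locus. In the GENCODE annotation used here, 4329 of the 7777 exon bases of HYPK are also exons of SERF2 on the same strand, and 3448 are not. The canonical HYPK transcript has 4 exons and 3011 bases, and 100% of these lie inside SERF2 exons. Of the 17 SERF2 transcripts, 6 run past the HYPK start. Among these only ENST00000409617 and ENST00000448830 hold the canonical HYPK exons, while the others end upstream of them. The bases of HYPK alone form 4 stretches of 2727, 250, 330 and 141 bases, all absent from the canonical HYPK transcript. The 2727 and 250 base stretches belong to the long first exon of a single HYPK transcript, and the other two to transcripts that keep intron sequence. SERINC4, on the opposite strand, shares bases with HYPK too, but had only 0 to 4 counts per library. The authors counted on an older annotation and the overlap mode is not given in the sources used here, so which of these bases gave the HYPK counts was not tested. HTSeq set aside as ambiguous the pairs it could not give to a single gene. Under this annotation every pair lying within the canonical HYPK mRNA also lies in SERF2 exons. The HYPK count would then hold none of these pairs. Pairs that HTSeq set aside as ambiguous over all genes were 3.93 to 4.03% of the file totals in controls and 4.11 to 4.24% in treated samples.

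SERF2 was higher after IRE1 as well, with a smaller fold change. SERF2 (ENSG00000140264, plus strand, chr15:44069285-44096625) had 10293, 10116 and 10366 normalized counts in controls and 13898, 12810 and 11749 in treated libraries. All treated libraries were above all controls. The order of the treated libraries was that of HYPK and also of NAA10, but not of NAA20. It was also the order in which these libraries differed from each control over all genes. The mean rose from 10258 ± 129 to 12819 ± 1075, a log2 fold change of 0.32 (SE 0.0554, adjusted p = 0.000990, quasi-likelihood test of edgeR, adjusted over all tested genes by Benjamini and Hochberg). The summed counts of both genes do not depend on which of them a pair was given to. They leave out pairs set aside as ambiguous, so they are not a total for the locus. The sum went from 10445 ± 125 to 13147 ± 1179, a log2 ratio of 0.33.

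HYPK made up a small share of the counts given to either gene. Its share of the HYPK and SERF2 counts was 1.72, 1.86 and 1.77% in controls and 3.18, 2.14 and 2.08% in treated libraries. The treated shares were all above the control shares, with 1 of them far above. The means were 1.78 ± 0.0679% and 2.47 ± 0.617%, a difference of 0.68 percentage points that was 0.32 without IRE1-treated replicate 1. No test was made of this share, because HYPK was chosen for the contrast.

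Of the NatA subunits the catalytic NAA10 rose, while NAA15, NAA16 and NAA50 did not pass the test. Over the 8 genes other than HYPK, 3 were higher (SERF2, NAA10 and NAA20), 2 were lower (NAA25 and NAA30) and 3 were not called, against a background of 22.7% of all tested genes called, 10.3% higher and 12.4% lower. Groups did not overlap for 5 of these 8 genes, where 39.1% of all tested genes had groups that did not overlap (19.1% higher and 20.0% lower). The median log2 fold change of these 8 genes was −0.17, and that of all tested genes 0.0045.

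NAA10 (ENSG00000102030, chrX:153194678-153200533, minus strand), which transfers the acetyl group, had 3470, 3410 and 3743 normalized counts in controls and 4463, 4431 and 4063 in treated libraries. Every treated library was above every control. The mean rose from 3541 ± 178 to 4319 ± 223, a log2 fold change of 0.29 (SE 0.0534, adjusted p = 0.00166). A part of its exons is shared with ARHGAP4 on the same strand, and 4465 of its 4946 exon bases are its own.

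NAA15 (ENSG00000164134, chr4:140222600-140341187, plus strand), the main ribosome anchor of NatA, had 1012, 1028 and 870 normalized counts in controls and 754, 825 and 957 in treated libraries. The highest treated library lay inside the control range. The log2 fold change was −0.20 (SE 0.0841, 95% interval −0.37 to −0.02, adjusted p = 0.107). Without IRE1-treated replicate 3 it was −0.29 and passed the threshold (adjusted p = 0.00474). Over all genes 4312 were then called, against 3270 with every library. When any other library was left out, NAA15 was not called (adjusted p = 0.0561 to 0.331).

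NAA16 (ENSG00000172766, chr13:41885403-41951166, plus strand), the paralog that can replace NAA15, had 181, 174 and 141 normalized counts in controls and 80.2, 183 and 133 in treated libraries. The treated libraries spread on both sides of the controls. The log2 fold change was −0.31 (SE 0.199, 95% interval −0.73 to 0.11, adjusted p = 0.284), and it was −0.07 without IRE1-treated replicate 1 and −0.61 without IRE1-treated replicate 2. NAA16 took 15.1, 14.5 and 13.9% of the summed NAA15 and NAA16 counts in controls and 9.61, 18.2 and 12.2% in treated libraries. The means were 14.5 ± 0.612% and 13.3 ± 4.41%, and the difference of −1.19 percentage points was within the spread of the treated libraries (exact two-sided permutation test, p = 0.7, where 3 against 3 allows no p below 0.1).

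NAA50 (ENSG00000121579, chr3:113435305-113465147, minus strand), the enzyme that rides on NatA, had 2279, 2640 and 2320 normalized counts in controls and 2050, 2079 and 2415 in treated libraries. The third treated library lay between the controls. The log2 fold change was −0.14 (SE 0.0690, adjusted p = 0.151), and it was −0.22 and past the threshold without IRE1-treated replicate 3 (adjusted p = 0.00889). When any other library was left out, NAA50 was not called (adjusted p = 0.148 to 0.564). The annotation names 2 pseudogenes after NAA50, and reads shared with these could not be resolved from the counts.

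**Figure D2:**
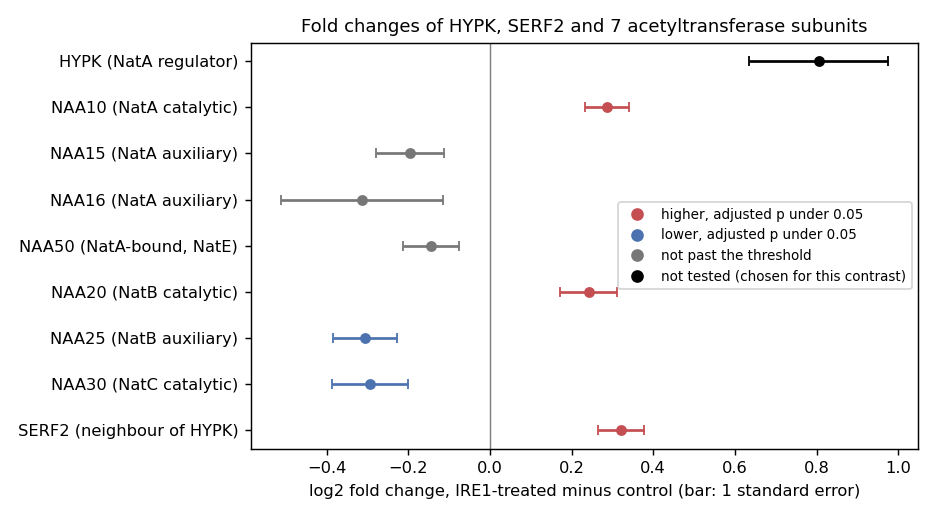
Log2 fold change of IRE1-treated over control samples (x axis, with 1 standard error) for HYPK, SERF2 and the 7 acetyltransferase subunits, coloured by the test, with 3 libraries a group. NAA10 and NAA20 lie above 0 at 0.29 and 0.24, and NAA25 and NAA30 below 0 at −0.31 and −0.29.

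The 2 subunits of NatB went in opposite directions. NAA20 (ENSG00000173418, chr20:19997954-20014299, plus strand), its catalytic subunit, had 499, 480 and 483 normalized counts in controls and 557, 599 and 573 in treated libraries. The groups were well separated. The mean rose from 487 ± 10.0 to 576 ± 21.3, a log2 fold change of 0.24 (SE 0.0692, adjusted p = 0.0201). The call was lost when any control library or IRE1-treated replicate 2 was left out (adjusted p = 0.0603 to 0.0918) and under scaling by library size only, which gave 0.17. The annotation names 1 pseudogene after NAA20.

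NAA25 (ENSG00000111300, chr12:112464493-112546600, minus strand), the auxiliary subunit of NatB, had 627, 614 and 554 normalized counts in controls and 448, 482 and 519 in treated libraries. All treated libraries were below all controls. The mean fell from 598 ± 39.1 to 483 ± 35.9, a log2 fold change of −0.31 (SE 0.0783, adjusted p = 0.0109). Leaving out control replicate 1 or control replicate 2 ended the call (adjusted p = 0.0718 and 0.0608).

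NAA30 (ENSG00000139977, chr14:57857262-57882624, plus strand), the catalytic subunit of NatC, had 315, 350 and 338 normalized counts in controls and 259, 260 and 297 in treated libraries. The treated libraries were all lower. The mean fell from 334 ± 18.1 to 272 ± 21.4, a log2 fold change of −0.29 (SE 0.0925, adjusted p = 0.0321). The call held without IRE1-treated replicate 3 and was lost when any of the other 5 libraries was left out (adjusted p = 0.0546 to 0.143), and DESeq2 gave an adjusted p of 0.0581.

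Per kilobase of annotated exon, the genes kept much the same order in both groups. In controls SERF2 had the highest level at 1117 ± 14.0 normalized counts per kilobase, followed by NAA10 at 716 ± 35.9 and NAA50 at 375 ± 30.8. NAA20 had 223 ± 4.59, NAA15 96.7 ± 8.66, NAA25 60.4 ± 3.95 and NAA30 43.8 ± 2.36. NAA16 at 28.5 ± 3.69 and HYPK at 24.0 ± 0.707 were lowest, and these were the only neighbours in the order whose control libraries overlapped. In treated libraries HYPK was at 42.2 ± 14.3, between NAA25 at 48.8 ± 3.62 and NAA30 at 35.6 ± 2.80, and its libraries, from 32.2 to 58.7, overlapped those of both. Without IRE1-treated replicate 1 HYPK was at 34.0, below NAA30 at 36.4. HYPK's level depends on which bases could be counted. Dividing its full count by its unshared bases alone gave 54.0 per kilobase in controls, above NAA30 and NAA16. Whether its counts came from those bases was not tested.

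Transcript length went with the direction of change across all genes. When the tested protein-coding genes were split into 10 classes by transcript length, the class of the shortest held NAA20. In it the median log2 fold change was 0.21, and 41.6% were called higher. The median was −0.25 in the class of the longest, of which 43.6% were called lower. The longest annotated transcripts were 1604 bases for NAA20 and 2467 for NAA10, the subunits that rose. They were 5815 bases for NAA25 and 7600 for NAA30, which fell, and 4285, 6174 and 6112 for NAA16, NAA15 and NAA50. HYPK and SERF2 lay away from this trend. HYPK's longest transcript has 7122 bases, in a length class with a median of −0.18, and SERF2's has 4630 bases, in a class with a median of −0.09, while their canonical transcripts have 3011 and 2543 bases.

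When a trend with transcript length and GC content was removed from each library, HYPK had a log2 fold change of 0.98 and SERF2 of 0.38 (adjusted p = 0.000478). With the length and GC content of the canonical transcript instead, an alternative added after the data were seen, these were 0.80 and 0.27. NAA10 stayed past the threshold in both (0.15 with canonical transcripts, adjusted p = 0.0236). NAA20, NAA25 and NAA30 did not pass the test in either, with log2 fold changes of 0.088, −0.16 and −0.07 with the longest transcript. The part of length in the members' values was not tested in any other way.

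**Figure D3:**
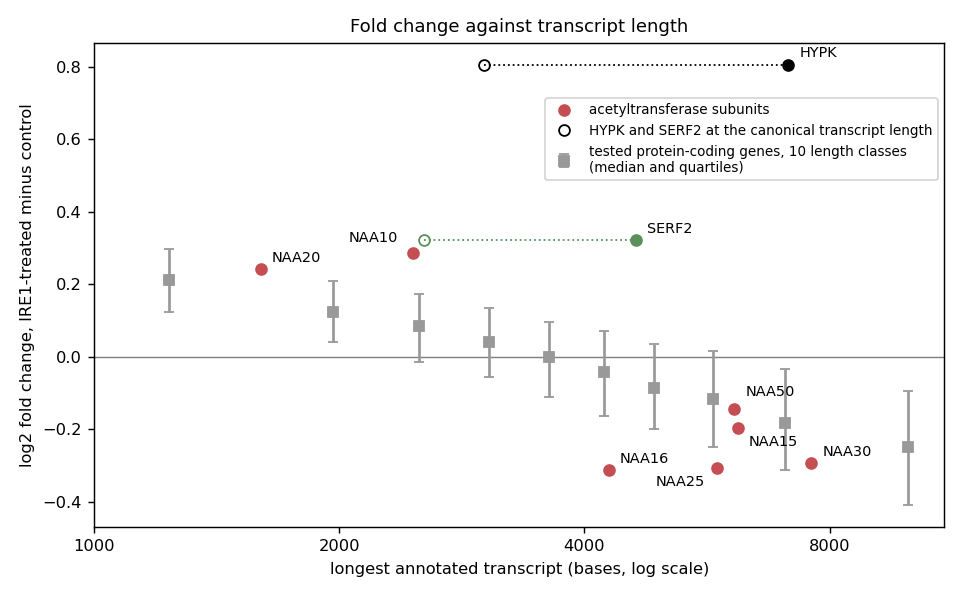
Log2 fold change (y axis) against the longest annotated transcript in bases (x axis, log scale) for the 9 genes, with medians and quartiles of 10 length classes of tested protein-coding genes in grey and open circles for the canonical lengths of HYPK and SERF2. The grey medians run from 0.21 to −0.25, and HYPK at 0.81 and SERF2 at 0.32 lie above the quartiles at either length.

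The list of other genes that act on new N-termini held 18 genes of acetylation, methionine removal, myristoylation, nascent chain binding and recognition of acetylated N-termini, of which 17 were tested, since NAA11 had no count. Of these 4 were higher, 1 was lower and 12 were not called, beside 10.3% of all tested genes called higher and 12.4% lower. Whether the list differs from all genes was not tested. The median log2 fold change was 0.055, within a range of −0.23 to 0.36, and −0.020 under scaling by library size only.

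NAA38, the small auxiliary subunit of NatC, rose from 1826 ± 49.5 to 2344 ± 303 normalized counts (log2 fold change 0.36, adjusted p = 0.00265), in contrast to the catalytic NAA30. NAA35, the third NatC subunit, was close to its control mean (log2 fold change −0.04, adjusted p = 0.727). NACA and BTF3 form the nascent polypeptide-associated complex, which meets new chains at the ribosome exit. NACA rose by 0.27 on the log2 scale (adjusted p = 0.000780) and BTF3 by 0.29 (adjusted p = 0.00286). DNAJC2, a ribosome-associated chaperone, rose by 0.29 (adjusted p = 0.00690). Its partner HSPA14 did not pass the test (log2 fold change 0.0036, adjusted p = 0.984). MARCHF6, a ubiquitin ligase reported to read acetylated N-termini, fell by 0.18 on the log2 scale (adjusted p = 0.0332). This call was lost with the length trend removed, with limma and with the replicate number as a block. It was also lost without control replicate 1, control replicate 2 or IRE1-treated replicate 2. NACA shares exon bases with PRIM1 on the same strand in this annotation.

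**Figure D4:**
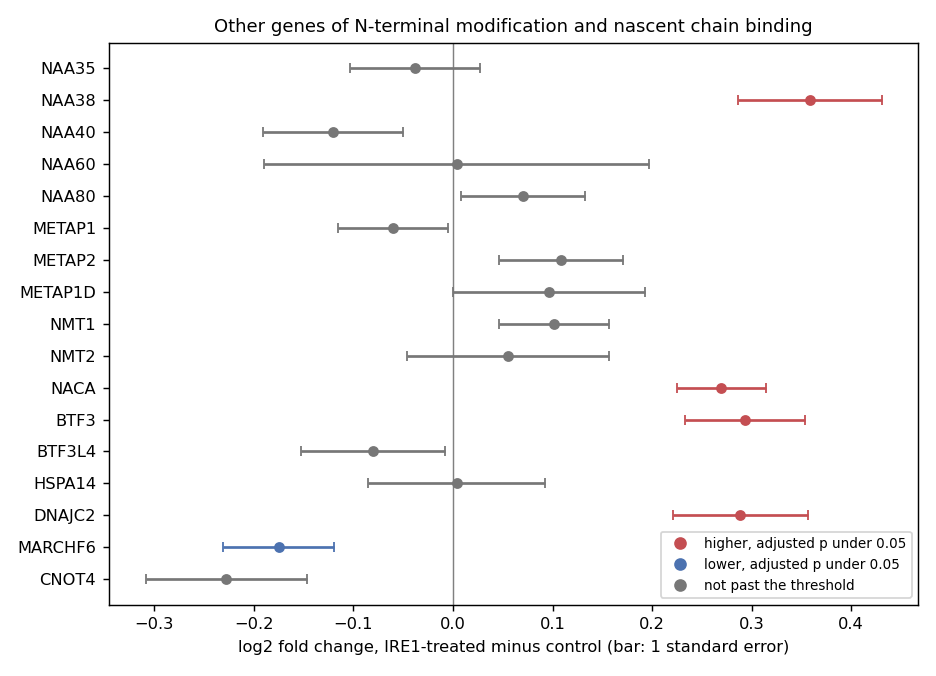
Log2 fold change of IRE1-treated over control samples (x axis, with 1 standard error) for the 17 tested genes of N-terminal modification and nascent chain binding, coloured by the test. NAA38, NACA, BTF3 and DNAJC2 lie between 0.27 and 0.36, and MARCHF6 is the gene called lower, at −0.18.

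In a window of 200 kb centred on the HYPK start there were 16 other annotated genes besides SERF2, 5 of them tested, and 0 passed the threshold with edgeR or DESeq2 (2 had an unadjusted p under 0.05). With 22.7% of all tested genes called and 5 neighbours tested, this count is near the background. PDIA3, a protein disulfide isomerase of the endoplasmic reticulum and the nearest abundant gene upstream, had 10879 ± 166 normalized counts in controls and 11674 ± 191 after IRE1, a log2 fold change of 0.10 (adjusted p = 0.106). MFAP1, a splicing factor downstream, was at a log2 fold change of 0.18 (adjusted p = 0.0503). Groups did not overlap for these 2 of the 5, near the share of 39.1% among all tested genes. The log2 fold changes of WDR76, FRMD5 and CATSPER2P1 were −0.11, 0.19 and 0.11 (adjusted p = 0.208, 0.497 and 0.865).

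The genes whose pattern over the 6 libraries was most like that of HYPK were RPL26, RPS28P7, HMGN5, ACYP1 and SNRPD1, among those 10293 genes. Their root mean square distances from HYPK's log2 normalized counts, each taken relative to the control mean, were 0.187, 0.194, 0.204, 0.204 and 0.216. All 5 had their highest ratio in IRE1-treated replicate 1, as HYPK did. They were picked for closeness to HYPK's pattern, so this likeness is no separate result. RPL26, which encodes a ribosomal protein, had log2 ratios of 0.86, 0.46 and 0.39 in IRE1-treated replicates 1, 2 and 3. RPS28P7 is annotated as a processed pseudogene, so its reads may belong to the parent gene. The points share the same 6 libraries and the same scaling, so no test was made.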

How the data were processed

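RNA from H929 cells was incubated with or without IRE1 (3 libraries each) and poly(A)-selected. Per the labels and the study's methods, the authors used Cutadapt 1.12, STAR 2.5.3a on GRCh37 (Ensembl release 87) and HTSeq 0.6.1p1. They deposited raw gene counts, used here, and normalized CPM values, used in an alternative only. HTSeq's strand and overlap settings are not given in the sources used here. Summary lines naming no gene (21.4 to 23.2% of the totals) were left out. Counts on genes were 19615715 to 25678499 per library, and this depth limits the precision of low counts.

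The counts were filtered with filterByExpr, scaled by TMM and tested without covariates by the quasi-likelihood test of edgeR 4.0.16 in R 4.3.3, with Benjamini-Hochberg adjustment over 14398 genes and a threshold of 0.05. In simulated data, 192 of 200 planted changes were recovered, 100 of 100 at 2-fold and 92 of 100 at 1.5-fold. There 13 unchanged genes were called. Changes as small as those of the members besides HYPK were not planted, so this recovery does not cover them. Alternatives were DESeq2 1.42.0, other scalings and filters, limma 3.58.1 on log2(CPM + 1), the replicate number as a block, length and GC trends, and each library left out. Annotation was GENCODE 44 on GRCh37, naming 55538 of 57905 identifiers; its gene models differ from the authors'. Hairpins were folded with ViennaRNA 2.7.2. The members and lists were chosen with earlier results of these data known. Named were the 9 members, the genes past the threshold in the list of 18, all tested neighbours, the 5 nearest patterns and BLOC1S1. NAA35, NAA11 and HSPA14, partners of named genes, were named after their values were seen. The CUGCAG site of HYPK is not reported here.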

Additional observations from a re-analysis of the deposited data

How the results depend on the processing

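SERF2 and NAA10 kept their direction and stayed past the threshold under every alternative run. HYPK stayed higher too, which is a description only, since it was chosen by this contrast. HYPK's log2 fold change ran from 0.69 to 0.98 and, when single libraries were omitted, from 0.51 to 0.98. Under the same omissions SERF2 ran from 0.26 to 0.39, NAA10 from 0.26 to 0.33, NAA15 from −0.29 to −0.12, NAA16 from −0.61 to −0.07, NAA50 from −0.22 to −0.074, NAA20 from 0.21 to 0.27, NAA25 from −0.36 to −0.26 and NAA30 from −0.36 to −0.26. The HYPK share difference ran from 0.32 to 0.87 percentage points and the NAA16 share difference from −3.62 to 0.67. The number of genes called ran from 1630 to 4312 (lower 972 to 2221, higher 638 to 2091), of list genes from 4 to 7 (lower 0 to 2, higher 4 to 5), and of neighbours from 0 to 1 (lower 0, higher 0 to 1). It was 1681, 1630 and 1982 without control replicates 1 and 2 and IRE1-treated replicate 2.

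Of 3270 genes called, 1781 were lower and 1489 higher. Library size scaling gave 2596 lower and 683 higher, with a median shift of −0.07. Limma on CPM gave 2073, of which 781 higher. With the trend of length and GC content removed, 1973 were called (755 lower, 1218 higher), with the replicate block and this trend 1686 (633 lower), and with canonical transcript length 1476 (567 lower, 909 higher). List genes called lower were 2 under library size scaling and without the filter on low counts, and 0 under limma, the block and the trends. The list median was −0.020 under library size scaling. Neighbours called were 1 (lower) under library size scaling and 1 (higher) under upper quartile scaling, with at least 10 counts in every library and under both trends without the block.

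Without the filter, NAA15 (−0.21, adjusted p = 0.0234) and NAA50 (−0.16, adjusted p = 0.0426) passed the threshold. NAA50 turned to 0.019 under the length trend and under the block with the trend, and to 0.064 with canonical length, which also turned NAA15 to 0.021. NAA20 was no longer called under library size scaling (0.17), the length trend (0.088), the block with the trend (0.086) or canonical length (0.099). NAA25 was not called under these 3 trends (−0.16, −0.16 and −0.11), nor NAA30 (−0.074, −0.078 and −0.039) or NAA30 under DESeq2 (−0.29). The causes were not tested. Replicate numbers did not pair the samples: same-numbered samples correlated at −0.036, −0.005 and −0.11. With the replicate block, 2613 genes were called, and NAA20 (0.24, adjusted p = 0.0532) and NAA30 (−0.30, adjusted p = 0.0517) lost their calls.

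Levels per kilobase in controls changed with the length used. Dividing the full counts by unshared exon bases gave 54.0 for HYPK, 793 for NAA10 and 2112 for SERF2. Over the longest transcript the values were 26.2 for HYPK, 1435 for NAA10, 157 for NAA15, 38.5 for NAA16, 304 for NAA20, 103 for NAA25 and 2216 for SERF2. Among the 9 members, NAA16 and HYPK had the fewest counts and are limited most by depth.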

Other observations

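The ratio between subunits of the same complex was free of library scaling, and these shares were computed after the values of the genes had been seen, so they have no test. NAA20 took 44.3, 43.9 and 46.6% of the summed NAA20 and NAA25 counts in controls and 55.4, 55.4 and 52.4% in IRE1-treated samples. The catalytic subunit of NatB thus went from fewer to more counts than its auxiliary subunit in all 3 treated libraries. These counts are not corrected for length. Per kilobase of exon NAA20 was above NAA25 in both groups, at 223 against 60.4 in controls and 264 against 48.8 after IRE1. NAA10 took 78.5 ± 2.33% of the summed NAA10 and NAA15 counts in controls and 83.6 ± 2.38% after IRE1 (SD, n = 3), and the lowest treated library lay below the highest control. In both pairs the subunit with the shorter transcript gained. The part of length in these shares was not tested.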
